A study of Mus musculus with 7 samples.

Results

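Glucose use and the response to low oxygen were followed in stromal cells of the mouse bone marrow through 33 genes, taken as a set by their symbols. Of these, 22 act in glucose uptake, glycolysis and the handling of pyruvate and lactate, and 11 are subunits, regulators or targets of the hypoxia-inducible factors (HIF). The deposited count tables hold 53801 gene IDs, and the 33 symbols matched 34 of them, because Aldoa has a second annotated locus. At least 1 count was found for 30 of the 33 genes, and 28 had enough counts to be tested. The donors were C57BL/6 males aged 8 weeks when treatment began. Of the 7 mice, 4 were given an inhibitor of the protease FAP (fibroblast activation protein) at 500 µg/kg, the FAPi group, and 3 the vehicle DPBS, a buffered saline. Each injection was 100 µl into the peritoneum, given daily for 35 days. The labels do not name the inhibitor. Live limb bone cells with Pdgfra and without the blood and endothelial proteins CD45, Ter119 and Tie2 were sorted, and each sort gave 1 RNA-seq library by a modified Smart-seq2 protocol.

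Glycolysis splits glucose into pyruvate and yields ATP without oxygen, and lactate dehydrogenase turns the pyruvate into lactate when it does not enter mitochondria. HIF is a pair of proteins, an oxygen-labile alpha subunit (encoded by Hif1a or Epas1) and the stable beta subunit encoded by Arnt. In the presence of oxygen, prolyl hydroxylases of the Egln family mark the alpha subunit for degradation, so HIF activity is set mainly by protein stability and not by the amount of its mRNA. In low oxygen the pair binds short DNA motifs and activates genes of glucose uptake, glycolysis and mitophagy. The bone marrow is a tissue of low oxygen tension, and stromal cells there can rely on glycolysis.

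Total gene counts ranged from 7492570 to 10569690 per library, so 3 counts corresponded to between 0.269 and 0.419 CPM (counts scaled to a library of 1000000). CPM values are scaled with TMM factors throughout, which correct the library totals for composition. All 10 markers of the sorted stroma on a fixed list were present, with summed levels of 27054 to 28372 CPM in DPBS and 26822 to 30768 CPM in FAPi libraries. The transcripts of the excluded surface proteins were low, with 2 to 50 counts of Ptprc (CD45) and 0 to 17 counts of Tek (Tie2) per library. Red cell transcripts were present in every library and unequal between them. The 14 erythroid genes summed to between 1952 and 16450 CPM in DPBS and between 1695 and 3473 CPM in FAPi libraries, with the highest sum in DPBS replicate 2. The neutrophil list, of which Ly6g was at 0, summed to between 712 and 2869 CPM in DPBS and between 202 and 658 CPM in FAPi libraries, again with DPBS replicate 2 highest. Sums for B cells were 611 to 970 CPM in DPBS and 732 to 1079 CPM in FAPi libraries, most of it from Ebf1, which stromal cells also express. Without Ebf1 the B cell genes summed to 215 CPM in DPBS replicate 2, 217 CPM in FAPi replicate 1 and 14.8 to 23.2 CPM in the other 5 libraries. Macrophage genes, with Fcgr1 at 0, summed to 167 to 376 CPM in DPBS and 110 to 171 CPM in FAPi libraries. Most of this came from Lyz2, at 135 to 353 CPM in DPBS and 93.1 to 141 CPM in FAPi libraries. Adgre1 had 25 counts in DPBS replicate 1, 2 in FAPi replicate 3 and 0 in the others, and Csf1r had 0 to 16 counts. Endothelial genes summed to between 49.4 and 131 CPM in DPBS and between 38.1 and 387 CPM in FAPi libraries, where FAPi replicate 1 held 2711 counts of Kdr. Of 8 T and NK cell genes, 6 were at 0 in every library.

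Arnt and Ndrg1 had higher and Eno2 and Bnip3 lower mean values in FAPi than in DPBS mice, but no glycolysis or HIF gene passed the test. None of the 28 tested members passed the edgeR threshold (adjusted p under 0.05), and none of the 12930 tested genes did (0%). DESeq2 called 0 members, against 135 of the 12267 genes to which it gave an adjusted p (1.1%). At an unadjusted edgeR p under 0.05 there were 2 members, Arnt and Ndrg1, both with higher estimates in FAPi mice. They make up 7.14% of the tested members, against 8.14% of all tested genes, of which 4.45% were higher and 3.69% lower. DESeq2 had 3 members at an unadjusted p under 0.05, with Eno2 as the added gene, against 9.54% of all genes. The DPBS and FAPi libraries did not overlap at 3 members, or 10.7%, against 7.34% of all tested genes. Arnt was the member with separate groups that was higher in FAPi mice, where 3.39% of all genes were. Eno2 and Bnip3 were the members with separate groups that were lower, where 3.95% of all genes were.

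Estimates pointed in both directions within the pathway. FAPi was higher for 13 and lower for 15 of the tested members, with a median log2 difference (FAPi minus DPBS) of -0.05 against 0.01 over all tested genes. Members of the glycolysis branch had 10 higher and 10 lower estimates and a median of 0.05. Those of the hypoxia branch had 3 higher and 5 lower estimates and a median of -0.05. The estimates ran from -1.57 for Eno2 to 1.64 for Ndrg1, with a median standard error (SE) of 0.49. Adjusted p-values of the members lay between 0.563 and 0.999 in edgeR. Differences no larger than their SE were not detectable with 3 and 4 mice. Larger differences could be missed as well, since recovery was 24% at a factor of 4 for genes simulated from all tested genes. In bulk RNA, fewer cells of a type and less RNA per cell cannot be told apart.

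**Figure D1:**
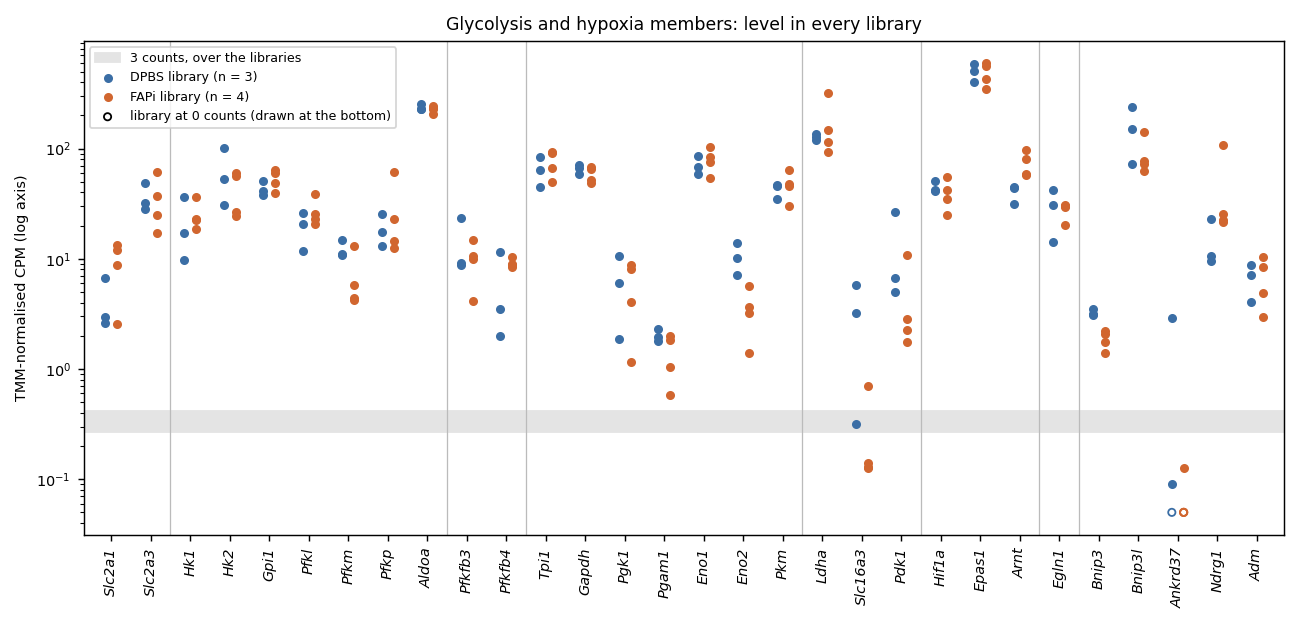
TMM-normalised CPM (log axis) of each member with at least 1 count in each of the 3 DPBS and 4 FAPi libraries, ordered by role; the grey band spans 3 counts over the libraries and open circles are libraries at 0 counts. Arnt, Eno2 and Bnip3 are the tested members whose groups do not overlap, and Epas1 and Aldoa stand highest in CPM in every library except FAPi replicate 3, where Ldha passes Aldoa.

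**Figure D2:**
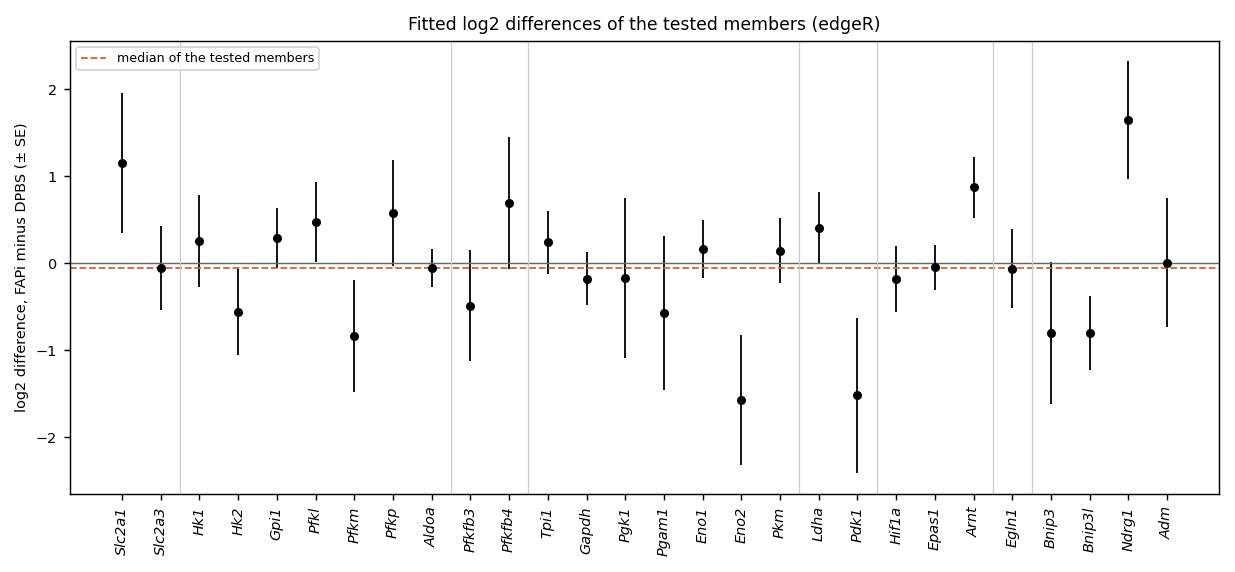
Fitted log2 differences (FAPi minus DPBS, edgeR) of the 28 tested members with bars of 1 SE, ordered by role; the dashed line is their median of -0.05. Estimates run from -1.57 (Eno2) to 1.64 (Ndrg1), and no member passes the adjusted threshold.

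Glucose enters these cells through facilitative transporters, and Slc2a3, which encodes the high-affinity transporter GLUT3, was the more abundant of the pair. Slc2a3 (chromosome 6, 122727809 to 122801640, mm10) stood at 48.9, 32.1 and 28.4 CPM in the DPBS and at 37.4, 17.1, 24.8 and 61.4 CPM in the FAPi libraries. The highest and the lowest value were both FAPi libraries and the groups overlapped, with a log2 difference of -0.05 ± 0.48 (SE). Slc2a1, which encodes the widespread transporter GLUT1, had 2.96, 6.76 and 2.64 CPM in DPBS and 13.3, 2.58, 8.74 and 12.0 CPM in FAPi libraries. FAPi replicates 1, 3 and 4 lay above every DPBS library, while FAPi replicate 2 was the lowest of all 7. The log2 difference of Slc2a1 was 1.15 ± 0.81 and did not pass (adjusted p = 0.750, edgeR). Slc2a1 shares exon sequence with Gm12868 on the other strand, and without a stated strand setting the reads of such pairs cannot be told apart. This applies to 13 of the 33 members.

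Levels of different genes were compared per kilobase (kb) of annotated exons, and the share of a paralog is its part of the family's summed CPM per kb in 1 library. Slc2a3 took 72.2 ± 11.9% (SD over the 7 libraries) of the transporter pair. The share of Slc2a1 averaged 19.2 ± 9.96% (SD) over the 3 DPBS and 34.3 ± 9.42% (SD) over the 4 FAPi libraries, with overlap. Hexokinase traps glucose by phosphorylating it. Hk2, the inducible form, took 72.6 ± 13.5% (SD over the 7 libraries) of the hexokinase pair, between 54.8% and 89.4% over the libraries. With the length of the longest transcript in place of all exons, the mean share of Hk2 was 60.3%, and Hk1 was then the larger in DPBS replicate 1 (60.3%) and FAPi replicate 1 (53.0%).

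Hk2 had 30.7, 53.5 and 101 CPM in DPBS and 26.4, 60.1, 24.3 and 56.4 CPM in FAPi libraries. DPBS replicate 3 stood above the other 6 libraries, and the log2 difference of -0.56 ± 0.50 became -0.01 without it. Hk1 had 36.3, 9.72 and 17.1 CPM in DPBS and 23.1, 22.5, 18.6 and 36.2 CPM in FAPi libraries, so that DPBS libraries held both extremes. Phosphofructokinase, the committed step of glycolysis, has liver, muscle and platelet forms. Pfkl, Pfkm and Pfkp took on average 44.0 ± 13.8%, 34.5 ± 15.6% and 21.5 ± 13.6% of the family (SD over the 7 libraries), so the order of the forms was within their spread. The share of the muscle form Pfkm was 46.5 ± 6.13% (SD) over the 3 DPBS and 25.5 ± 14.4% (SD) over the 4 FAPi libraries, with overlap. Pfkp reached 51.2% in FAPi replicate 4, where it stood at 61.4 CPM against 12.5 to 22.8 CPM in the other FAPi libraries. Gpi1, the isomerase between hexokinase and phosphofructokinase, ranged from 37.98 to 50.7 CPM in DPBS and from 39.9 to 64.3 CPM in FAPi libraries.

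Aldolase splits the 6-carbon sugar, and Aldoa was the most even member. Aldoa (chromosome 7, 126795234 to 126800751) had 228, 254 and 228 CPM in DPBS and 206, 227, 242 and 234 CPM in FAPi libraries. The groups overlapped across a narrow range, and the log2 difference was -0.06 ± 0.22, the smallest SE among the tested members. Per kb of annotated exons its level of 79.5 ± 5.04 CPM (SD over the 7 libraries) was next to that of Epas1. Aldoc was at 0 counts in all 7 libraries, so Aldoa supplied 100% of the pair. A count of 0 allows up to 3 counts, or 0.419 CPM in the shallowest library. The second Aldoa locus (ENSMUSG00000114515.2, chromosome 7, 126800790 to 126809108) had 17 counts in DPBS replicate 3 and 0 elsewhere.

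Fructose 2,6-bisphosphate, made and removed by the PFKFB enzymes, is the main activator of phosphofructokinase. Pfkfb4 (chromosome 9, 108991778 to 109032228) had 3.49, 11.5 and 1.98 CPM in DPBS and 10.4, 8.40, 8.74 and 8.93 CPM in FAPi libraries. The FAPi libraries lay close together and above DPBS replicates 1 and 3, and DPBS replicate 2 was the highest of all. The log2 difference was 0.69 ± 0.76 with all libraries, 1.73 without DPBS replicate 2 and 0.28 without DPBS replicate 3. With a blood marker covariate, the mean of the red cell and neutrophil lists, it was 1.85. Pfkfb3 had 9.14, 8.87 and 23.7 CPM in DPBS and 10.04, 4.14, 14.8 and 10.6 CPM in FAPi libraries, with DPBS replicate 3 highest and the groups overlapping. Pfkfb4 took 51.1 ± 21.5% (SD over the 7 libraries) of this pair, and neither form was the larger beyond the spread.

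**Figure D3:**
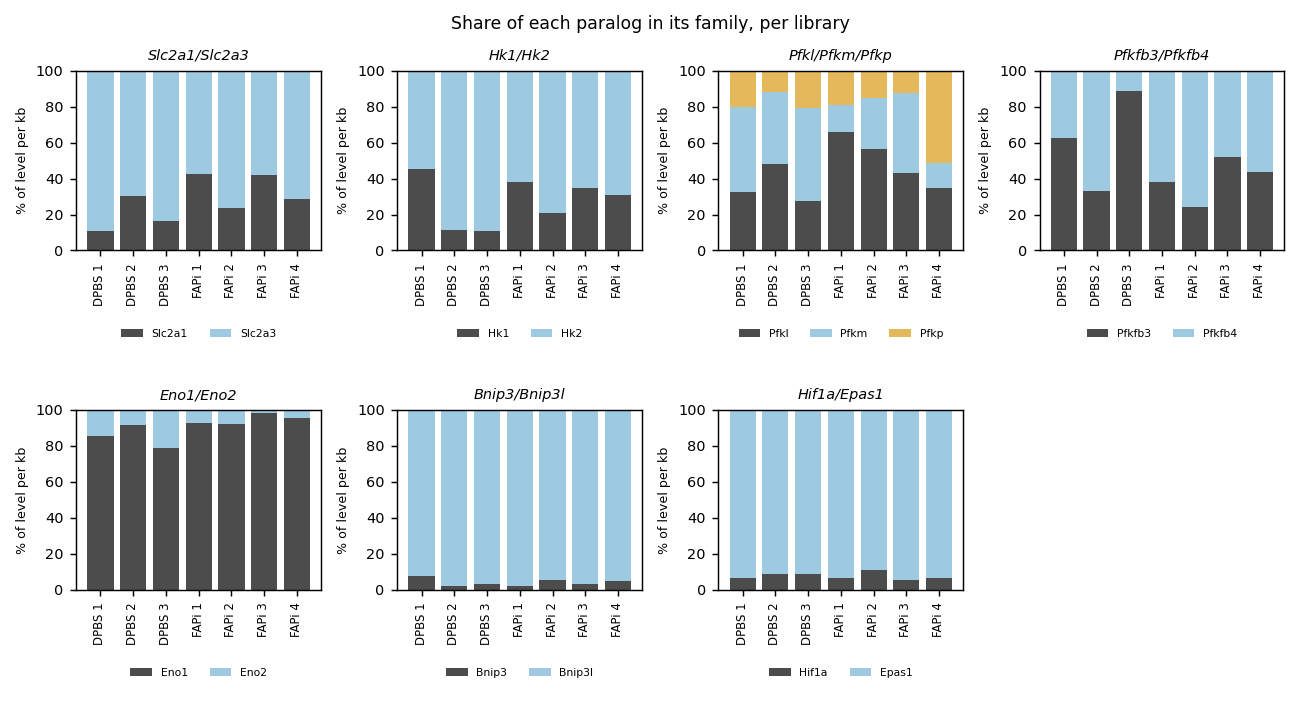
Share of each paralog (percent of the family's summed CPM per kb of exons) in each library for 7 families; Aldoa and Egln1, whose partners are at 0 counts, are not drawn. Epas1, Bnip3l and Eno1 hold most of their families in every library, while the shares of the Pfkfb and phosphofructokinase forms change from library to library.

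The triose phase of glycolysis yields ATP and pyruvate. Several of its genes have many processed pseudogenes, so the sequence they share with other loci was measured first. Of the 50-base words in the longest coding transcript, 82.5% for Gapdh, 72.2% for Eno1, 68.0% for Pgk1, 41.5% for Pgam1, 30.5% for Pkm and 7.51% for Tpi1 also occur in another annotated locus. In Eno2 the figure was 0.255%. Gapdh, the dehydrogenase often used as a reference gene, stood at 65.8 ± 6.77 CPM (SD) over the 3 DPBS and 58.3 ± 9.27 CPM (SD) over the 4 FAPi libraries. Per kb this gave 14.9 CPM for Gapdh and 2.58 CPM for Pgk1, against 25.6 CPM for Tpi1 and 79.5 CPM for Aldoa. Pkm at 9.02 CPM and Eno2 at 1.37 CPM per kb lay below Gapdh with less shared sequence. Exons of Pkm overlap Gm49759 on the same strand, which can lower its count. Such an overlap was found for 3 members, the others being Pfkm (with Gm26513) and Hif1a. How reads with several matches were counted is not stated in the labels. The levels of genes with much shared sequence may therefore be incomplete, and the part of this in their order was not tested.

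**Figure D4:**
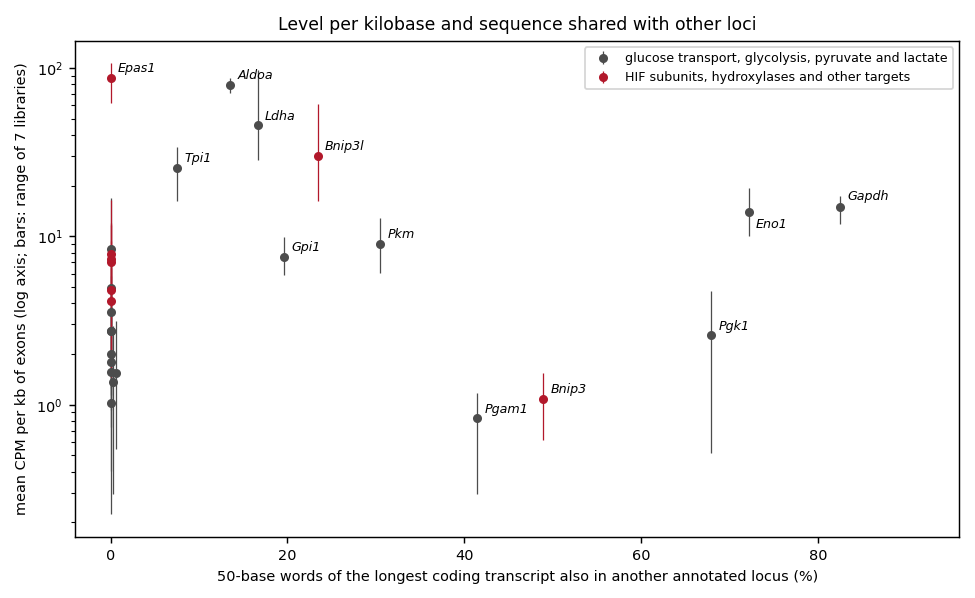
Mean CPM per kb of exons (log axis; bars span the lowest to the highest of the 7 libraries) of each tested member against the percent of its 50-base words that occur in another annotated locus. Gapdh, Eno1 and Pgk1 share over 60% of their words and lie below Tpi1, Ldha and Aldoa, which share under 20%. Other members do not follow this order: Gpi1, Pkm and Eno2 share less than Gapdh and Eno1 and lie below them. Pkm also overlaps Gm49759 on the same strand, and the loss of reads was not tested. Slc2a1 and Hk1, which share no word, lie below Gapdh and Eno1 too.

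Tpi1, which interconverts the triose phosphates, was the most abundant of this phase per kb. Tpi1 (chromosome 6, 124810586 to 124814296) had 44.4, 83.7 and 63.8 CPM in DPBS and 93.9, 66.2, 49.9 and 92.0 CPM in FAPi libraries. FAPi replicates 1 and 4 were highest, the groups overlapped, and the log2 difference was 0.24 ± 0.36. Enolase makes phosphoenolpyruvate, and its alpha form Eno1 took 90.6 ± 6.68% (SD over the 7 libraries) of the pair. The gamma form Eno2, best known from neurons, was the triose phase gene whose groups were separate. Eno2 (ENSMUSG00000004267.16, chromosome 6, 124760053 to 124769673) had 10.1, 7.08 and 13.9 CPM in DPBS and 3.64, 5.69, 1.40 and 3.21 CPM in FAPi libraries. Each DPBS library lay above each FAPi library, and FAPi replicate 3 was lowest.

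Eno2 averaged 10.4 ± 3.39 CPM (SD) over the 3 DPBS and 3.48 ± 1.76 CPM (SD) over the 4 FAPi mice. Its log2 difference was -1.57 ± 0.75, with an unadjusted p of 0.0599 and an adjusted p of 0.629 in edgeR. The estimate stayed between -1.92 and -1.30 when each library was left out in turn. As a share of the enolase pair, Eno2 held 14.9 ± 6.38% (SD) over the 3 DPBS and 5.21 ± 2.94% (SD) over the 4 FAPi libraries, and the shares did not overlap (8.63% to 21.4% and 1.52% to 7.92%). The partner Eno1 had 67.5, 85.7 and 58.2 CPM in DPBS and 53.7, 75.6, 104 and 83.2 CPM in FAPi libraries. FAPi libraries held both extremes of Eno1, and the other triose phase genes overlapped as well. Pkm, the last ATP-yielding step, ranged from 35.2 to 46.7 CPM in DPBS and from 30.1 to 64.1 CPM in FAPi libraries. Pgk1 ranged from 1.88 to 10.7 CPM and from 1.16 to 8.74 CPM. Pgam1, a mutase gene with few counts, had 1.97, 2.32 and 1.79 CPM in DPBS and 2.01, 1.03, 0.582 and 1.81 CPM in FAPi libraries.

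Pyruvate is turned into lactate by Ldha, and MCT4, the product of Slc16a3, is 1 of the carriers through which lactate can leave the cell. Ldha (chromosome 7, 46841475 to 46855627) had 128, 119 and 136 CPM in DPBS and 115, 147, 323 and 93.4 CPM in FAPi libraries. FAPi replicate 3 lay far above the other 6 libraries, and 2 FAPi libraries lay below every DPBS library. The means were 128 ± 8.66 CPM (SD) over the 3 DPBS and 170 ± 105 CPM (SD) over the 4 FAPi libraries. The log2 difference of 0.41 ± 0.41 did not pass (adjusted p = 0.846, edgeR), and without FAPi replicate 3 it was -0.10. The exporter gene Slc16a3 (chromosome 11, 120948480 to 120960868) had 64, 3 and 34 counts in DPBS and 1, 1, 6 and 1 counts in FAPi libraries. Most of its counts came from DPBS replicates 1 and 3, while DPBS replicate 2 was at 3 counts and the groups overlapped. Slc16a3 was too low to be tested with the main filter. With no filter on low counts its adjusted p was 0.535 (edgeR).

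Pdk1, a HIF target whose kinase closes the entry of pyruvate into the citric acid cycle, was spread over a wide range. Pdk1 (chromosome 2, 71873224 to 71903858) had 5.02, 26.4 and 6.69 CPM in DPBS and 2.26, 2.84, 1.75 and 10.9 CPM in FAPi libraries. DPBS replicate 2 was highest and FAPi replicate 4 next, above the other DPBS libraries. The log2 difference was -1.52 ± 0.89 (adjusted p = 0.704, edgeR). It became -0.40 without DPBS replicate 2 and -2.46 without FAPi replicate 4. DPBS replicate 2 was also the library with the most red cell and neutrophil transcripts. With the mean of those 2 lists as a covariate, the estimate for Pdk1 was -1.83.

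The HIF subunits included the most abundant member per kb of annotated exons. Epas1, which encodes HIF-2 alpha (ENSMUSG00000024140.10, chromosome 17, 86753700 to 86833410), had 590, 502 and 402 CPM in DPBS and 559, 426, 596 and 346 CPM in FAPi libraries. The FAPi libraries enclosed the DPBS range, and the log2 difference was -0.05 ± 0.26 (adjusted p = 0.986, edgeR). Per kb, Epas1 averaged 87.4 ± 17.7 CPM (SD over the 7 libraries), Aldoa 79.5 ± 5.04 CPM and Ldha 45.8 CPM. On this measure Epas1 and Aldoa did not differ beyond their spread. The order depends on the length used. Aldoa has 2911 bases of annotated exons but 1549 in its longest transcript, against 5590 and 5516 for Epas1. By the longest transcript, Aldoa would stand above Epas1. Hif1a, which encodes HIF-1 alpha, had 42.4, 50.4 and 41.5 CPM in DPBS and 42.4, 55.7, 34.7 and 25.0 CPM in FAPi libraries. The FAPi libraries enclosed the DPBS range, with a log2 difference of -0.18 ± 0.38. Epas1 held 92.4 ± 1.999% (SD over the 7 libraries) of the alpha subunit level per kb, between 89.0% and 94.8% in single libraries. Neither Hif1a nor Epas1 shares a 50-base word with another annotated locus. Exons of Hif1a overlap Gm49321 on the same strand and Gm15283 on the other, which can lower its count, while Epas1 has no such overlap. The share was 92.0 ± 1.40% (SD) over the 3 DPBS and 92.7 ± 2.54% (SD) over the 4 FAPi mice.

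Arnt, the beta subunit that pairs with either alpha subunit, had the smallest adjusted p of the members. Arnt (ENSMUSG00000015522.18, chromosome 3, 95434388 to 95497240) had 44.8, 31.3 and 43.5 CPM in DPBS and 96.3, 58.3, 57.4 and 80.7 CPM in FAPi libraries. All 4 FAPi libraries lay above all 3 DPBS libraries. The means were 39.9 ± 7.48 CPM (SD) over the 3 DPBS and 73.2 ± 18.8 CPM (SD) over the 4 FAPi libraries. Its log2 difference of 0.88 ± 0.35 had an unadjusted p of 0.0297 and an adjusted p of 0.563 in edgeR, so it did not pass. Leaving out each library in turn gave 0.71 to 0.98. Scaled by library totals alone, the estimate was 0.71 and the groups overlapped at this gene. With the blood marker covariate it was 0.66, with an unadjusted edgeR p of 0.187.

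Of the 2 prolyl hydroxylase genes among the members, Egln1 was present in every library and Egln3 in none. Egln1, which encodes PHD2, the main oxygen sensor of the family, had 41.7, 14.3 and 30.5 CPM in DPBS and 30.0, 31.0, 29.2 and 20.4 CPM in FAPi libraries. DPBS libraries held both extremes, and the log2 difference was -0.06 ± 0.45. Egln3, which encodes PHD3 and is itself a HIF target, was at 0 counts in all 7 libraries. Car9, the membrane carbonic anhydrase that is widely used as a hypoxia marker, was also at 0 counts in each library. Each 0 allows up to 3 counts, or 0.269 to 0.419 CPM depending on the library, and this covers counting error only. Ankrd37 had 31 counts in DPBS replicate 3, 1 count in DPBS replicate 1 and in FAPi replicate 1, and 0 in the others. Its exons overlap Ufsp2 and Lrp2bp on the other strand.

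Among the remaining HIF targets, the mitophagy receptors Bnip3 and Bnip3l were unequal in level. Bnip3l (chromosome 14, 66985239 to 67008877) held 95.9 ± 1.98% (SD over the 7 libraries) of the pair per kb. Of their 50-base words, 48.9% for Bnip3 and 23.4% for Bnip3l occur in another annotated locus. Both levels, and so the share, may be incomplete. Bnip3l had 72.7, 237 and 151 CPM in DPBS and 141, 62.4, 76.6 and 72.0 CPM in FAPi libraries. DPBS replicates 2 and 3 and FAPi replicate 1 were high, and the other 4 libraries lay together at lower values. The log2 difference was -0.80 ± 0.42 (adjusted p = 0.668, edgeR), and -0.35 without DPBS replicate 2. The erythroid sum was 16450 CPM in DPBS replicate 2 and 1952 CPM in DPBS replicate 3, the libraries with the highest Bnip3l values. With the blood marker covariate the estimate was -0.61. The part of red cells in the level of Bnip3l was not tested further.

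Bnip3 (ENSMUSG00000078566.8, chromosome 7, 138890836 to 138909519) had 39, 30 and 33 counts in DPBS and 14, 16, 12 and 16 counts in FAPi libraries. This came to 3.49, 3.17 and 3.11 CPM in DPBS and 1.76, 2.07, 1.40 and 2.23 CPM in FAPi libraries. Every DPBS library lay above every FAPi library, with means of 3.26 ± 0.207 CPM (SD) over the 3 DPBS and 1.86 ± 0.368 CPM (SD) over the 4 FAPi libraries. The log2 difference of -0.80 ± 0.82 had an unadjusted p of 0.348 and an adjusted p of 0.853 in edgeR, where the counts are low. Of the words of Bnip3, 48.9% occur in another annotated locus, and its exons overlap Gm45507 on the other strand.

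Ndrg1, a stress gene that HIF induces in many cell types, had the highest estimate of the members. Ndrg1 (ENSMUSG00000005125.13, chromosome 15, 66929318 to 66969640) had 22.8, 9.61 and 10.6 CPM in DPBS and 25.7, 22.6, 109 and 21.8 CPM in FAPi libraries. FAPi replicate 3 stood far above the rest, and DPBS replicate 1 lay within the range of the other FAPi libraries. The means were 14.3 ± 7.33 CPM (SD) over the 3 DPBS and 44.7 ± 42.7 CPM (SD) over the 4 FAPi libraries. The log2 difference of 1.64 ± 0.68 had an unadjusted p of 0.0341 and an adjusted p of 0.574 in edgeR. Without FAPi replicate 3 it was 0.71, with an unadjusted edgeR p of 0.217. In FAPi replicate 3, Ldha, Ndrg1, Gpi1, Eno1 and Epas1 had their highest values of the 7 libraries. Pdk1, Bnip3, Eno2, Pgam1 and Hk2 had their lowest there. Adm, which encodes the vasodilator adrenomedullin, ranged from 4.03 to 8.87 CPM in DPBS and from 2.97 to 10.5 CPM in FAPi libraries. Ndrg1 shares exon sequence with Gm17035 and Gm2895 on the other strand.

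**Figure D5:**
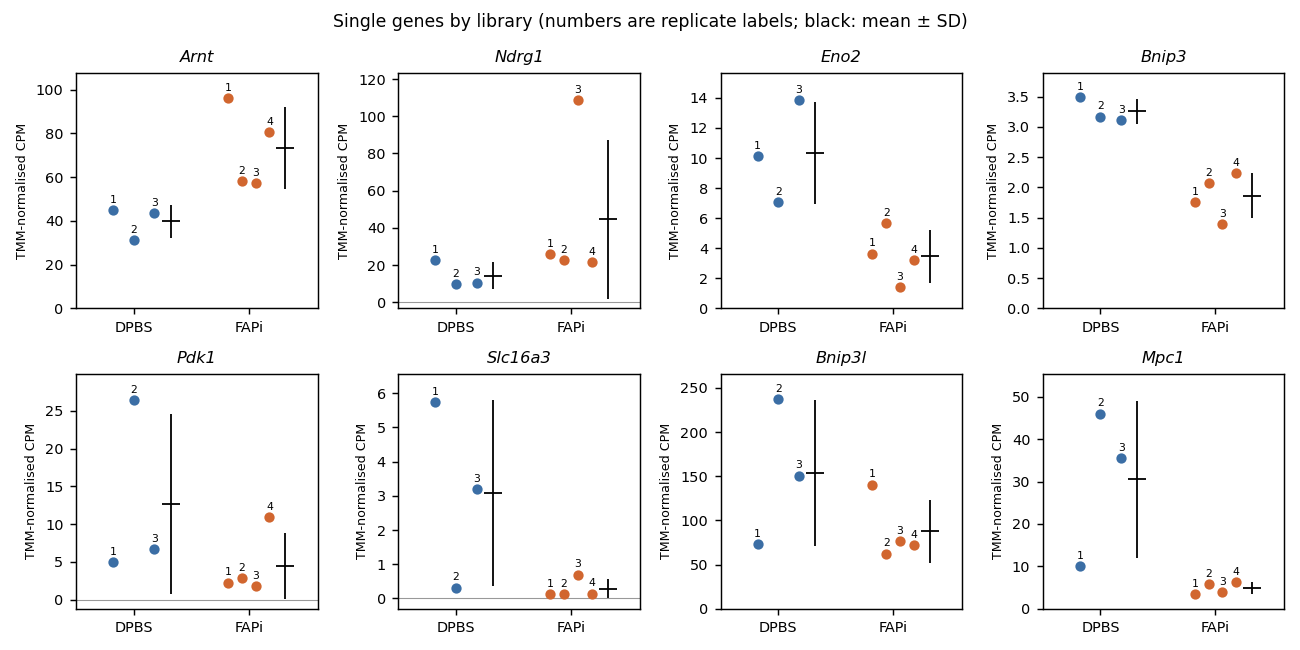
TMM-normalised CPM of 7 members and of Mpc1 in each library (points, numbered by replicate) with the group mean and SD in black. The groups are separate for Arnt, Eno2, Bnip3 and Mpc1, and 1 library sets the highest value of Ndrg1 (FAPi replicate 3), Pdk1 and Bnip3l (DPBS replicate 2).

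HIF binds a short core motif, and its forms ACGTG and GCGTG were searched on both strands of the 250 bases before each transcription start in RefSeq (GRCm38.p6). The palindrome CACGTG, which is also an E-box, holds ACGTG on each strand and counts as 2 matches. The table holds 29 of the 33 members, without Bnip3l, Ndrg1, Epas1 and Slc2a3. A match was found for 26 of the 29 (89.7%), against 41.5% of 27025 genes in the table and 60.9% of the 9248 tested genes in it. All 8 hypoxia members and 18 of 21 glycolysis members had one. Counted by window, the share was 81.0% of 42 member windows and 54.8% of 11807 windows of tested genes. The 29 members include Aldoc, Slc16a3, Egln3, Car9 and Ankrd37, which were not tested. HIF targets were put in the set as such, so the member shares are not independent of that choice. No match lay in the windows of Gpi1, Eno2 and Tpi1. Promoters of 4 members are printed, with the matched letters in capitals, because they hold the motif at genes of very different level. Ldha (chr7:46845554-46845803, plus strand) is among the most abundant members, Arnt (chr3:95434140-95434389, plus strand) was separate between the groups, and Car9 (chr4:43506776-43507025, plus strand) and Egln3 (chr12:54203875-54204124, minus strand) were at 0 counts.
Ldha: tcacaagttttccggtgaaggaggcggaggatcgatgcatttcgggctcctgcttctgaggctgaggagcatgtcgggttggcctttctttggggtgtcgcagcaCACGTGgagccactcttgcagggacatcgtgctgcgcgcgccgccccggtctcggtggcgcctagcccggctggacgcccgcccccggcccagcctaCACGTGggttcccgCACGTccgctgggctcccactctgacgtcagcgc
Arnt: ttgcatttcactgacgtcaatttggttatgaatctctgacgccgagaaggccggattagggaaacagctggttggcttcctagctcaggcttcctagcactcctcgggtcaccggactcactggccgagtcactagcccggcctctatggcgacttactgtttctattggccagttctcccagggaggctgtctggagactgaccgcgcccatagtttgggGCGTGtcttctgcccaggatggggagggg
Car9: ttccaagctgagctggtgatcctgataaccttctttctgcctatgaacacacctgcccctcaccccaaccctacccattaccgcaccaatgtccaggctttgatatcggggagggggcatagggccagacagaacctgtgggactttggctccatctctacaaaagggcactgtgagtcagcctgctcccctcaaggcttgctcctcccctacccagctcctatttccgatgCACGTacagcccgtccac
Egln3: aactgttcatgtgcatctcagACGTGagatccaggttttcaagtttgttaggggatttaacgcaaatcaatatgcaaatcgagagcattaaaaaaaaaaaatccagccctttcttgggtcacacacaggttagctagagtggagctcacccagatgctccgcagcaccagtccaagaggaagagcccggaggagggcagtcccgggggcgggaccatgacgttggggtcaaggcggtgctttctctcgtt
The Ldha window holds 5 matches, among them the palindrome at 2 places, and the other 3 windows hold 1 each. A match describes the letters and not a bound site.

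Neighbouring steps of the pathway were read from lists that hold none of the 33 genes. Of 22 other glycolysis genes 13 were tested, with 6 higher and 7 lower estimates, 0 at an unadjusted p under 0.05 and a median log2 difference of -0.17. The lactate and pyruvate carrier gene Slc16a7 was the 1 gene of this list with separate groups, at 20.2 ± 0.914 CPM (SD) over the 3 DPBS and 10.04 ± 3.20 CPM (SD) over the 4 FAPi mice. All 12 genes of pyruvate entry into mitochondria were tested, with 4 higher and 8 lower estimates, 1 at an unadjusted p under 0.05 and a median of -0.40. The 8 pentose phosphate genes had 4 higher and 4 lower estimates, 1 at an unadjusted p under 0.05 and a median of 0.02. Of 26 further hypoxia genes 23 were tested, with 9 higher and 14 lower estimates, 1 at an unadjusted p under 0.05 and a median of -0.17. None passed the adjusted threshold in edgeR. In the order given, 0%, 8.33%, 12.5% and 4.35% of the tested genes were at an unadjusted edgeR p under 0.05, against 8.14% of all tested genes. Separate groups were found for 7.69%, 16.7%, 0% and 8.70%, against 7.34% of all tested genes. Slc16a7, Pdp1 and Anxa2, which were separate with lower values in FAPi mice, were named after their values were seen.

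Mpc1, a subunit of the carrier that brings pyruvate into mitochondria, had the smallest p of these lists. Mpc1 (chromosome 17, 8282904 to 8297661) had 10.03, 46.1 and 35.6 CPM in DPBS and 3.39, 5.82, 3.84 and 6.28 CPM in FAPi libraries. The groups were separate, with DPBS replicate 1 nearest to the FAPi libraries, at means of 30.6 ± 18.5 CPM (SD) over the 3 DPBS and 4.83 ± 1.43 CPM (SD) over the 4 FAPi libraries. In edgeR the log2 difference was -2.66 ± 0.61 with an adjusted p of 0.424, while DESeq2 called the gene (log2 difference -2.63, adjusted p = 0.00749). Leaving out each library gave -3.08 to -2.24 in edgeR. Mpc1 shares 23.2% of its 50-base words with other annotated loci and overlaps 4930506C21Rik on the other strand. The other carrier subunit, Mpc2, ranged from 95.5 to 119 CPM in DPBS and from 79.9 to 171 CPM in FAPi libraries. Pdp1, a phosphatase that reverses the action of Pdk1, had 15.9 ± 2.73 CPM (SD) over the 3 DPBS and 6.10 ± 3.09 CPM (SD) over the 4 FAPi libraries, also without overlap.

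Taldo1, which encodes transaldolase, had 56.6, 133 and 82.9 CPM in DPBS and 30.8, 46.9, 24.7 and 60.6 CPM in FAPi libraries. The groups overlapped at DPBS replicate 1 and FAPi replicate 4. The log2 difference was -1.16 ± 0.42 (adjusted p = 0.519, edgeR), and -0.78 without DPBS replicate 2. Higd1a, a hypoxia-induced protein of the mitochondrial inner membrane, had 96.9, 190 and 137 CPM in DPBS and 79.3, 81.4, 77.9 and 86.4 CPM in FAPi libraries. The FAPi libraries lay in a narrow band below all DPBS libraries. The log2 difference was -0.80 ± 0.29 (adjusted p = 0.529, edgeR), and -0.53 without DPBS replicate 2. DPBS replicate 2, highest for Mpc1, Taldo1 and Higd1a, also had the highest red cell and neutrophil sums. With the blood marker covariate the log2 differences were -2.81 for Mpc1, -1.30 for Taldo1 and -0.72 for Higd1a. Vegfa, the angiogenic HIF target, had 48.4 ± 11.1 CPM (SD) over the 3 DPBS and 78.3 ± 33.6 CPM (SD) over the 4 FAPi mice, with overlap.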

How the data were processed

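RNA-seq libraries of sorted bone marrow stromal cells from 3 DPBS and 4 FAPi mice were analysed, grouped by their titles. The authors deposited a table of whole-number read counts per versioned Ensembl gene ID for each library. Per the submitters' processing notes, STAR and HTSeq were used with mm10. Their versions, the annotation, the strand setting and the treatment of reads with several matches were not given in the sources used here. A tag in the names of the deposited count tables reads as removal of duplicate reads. The deposited CPM tables were not used.

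Of 53801 gene IDs, 53706 matched GENCODE M21 (mm10), which gave symbols, coordinates and exon lengths. The test was edgeR 4.0.16 in R 4.3.3: filterByExpr with a minimum count of 10, TMM factors, a robust glmQLFit over all 12930 genes left, glmQLFTest and Benjamini-Hochberg adjustment with a threshold of 0.05. The SE is the absolute log2 difference divided by the square root of F. DESeq2 1.42.0, limma 3.58.1 (voom with sample weights), other scalings, no filter, a blood marker covariate, a replicate block and the omission of each library were alternatives. The functions were tested on simulated data. Totals of 7492570 to 10569690 counts put 3 counts at 0.269 to 0.419 CPM. Floors cover counting error only, since amplified reads are not independent molecules.

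The members and lists were chosen with earlier results of these data known. Values of every library are given for members with separate groups, for members at an unadjusted p under 0.05, and for the most abundant member of each role per kb. They are also given for paralogs of these, for members near the floor and for members set by 1 library, and, from the other lists, for genes at an unadjusted p under 0.05. Promoter sequences are from RefSeq (GRCm38.p6). Every pair of libraries within a group differed by more than sampling noise.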

Additional observations from a re-analysis of the deposited data

Results flagged for a closer look

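Among the 4 FAPi libraries, 30 members with at least 1 count were screened for 1 outlying library, by its gap to the nearest of the others divided by the whole range. The screen marked 5 members. Its limit would mark about 1 in 20, or 1.5 of 30, if the values were normally distributed. That does not hold for skewed CPM values or for genes with few counts, so no excess is read from the number marked. The 3 DPBS libraries were not screened. In FAPi replicate 3, Ndrg1 stood at 109 CPM, with the others at 21.8 to 25.7 CPM. Slc16a3, a lactate exporter gene, was highest in the same library at 0.699 CPM, with 0.126 to 0.140 CPM elsewhere, which is 6 counts against 1 count in each of the others. The highest Pdk1 value, 10.9 CPM, belonged to FAPi replicate 4, and the others lay between 1.75 and 2.84 CPM. Egln1 was lowest in FAPi replicate 4 at 20.4 CPM, below 29.2 to 31.0 CPM. Ankrd37 stood at 0.126 CPM in FAPi replicate 1, which is 1 count against 0 in the others.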

How the results depend on the processing

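No member was called by edgeR, DESeq2 or limma voom under any of the 14 alternatives, and the lowest adjusted p of a tested member over all of them was 0.244 (Ndrg1, DESeq2). Over all genes, the edgeR count of 0 calls became 135 with DESeq2, 6 with no filter on low counts and 1 with voom weights, and 0 to 3 when 1 library was left out, the 3 calls coming without DPBS replicate 3. The 1053 genes at an unadjusted p under 0.05 became 1911 with no filter. The 2 members at an unadjusted p under 0.05 (Arnt and Ndrg1) became 1 with library totals (Eno2), 4 with no filter (with Ankrd37 and Slc16a3 added) and 1 with the blood marker covariate (Ndrg1). With voom weights there were also 2, but Arnt and Eno2. Without 1 library they numbered 1 to 3: Slc16a3 alone without DPBS replicate 2, and Arnt alone without DPBS replicate 3 or FAPi replicate 3. The median log2 difference of -0.05 became -0.23 with library totals, where the median of all genes was -0.16, and lay between -0.094 and 0.073 when 1 library was left out. The 3 members with separate groups became 3 to 6 when 1 library was left out, with 6 (21.4%) without DPBS replicate 1 and 5 (17.9%) without DPBS replicate 2. Over all tested genes the share with separate groups was then 15.5% and 13.7%, against 7.34% with all libraries. DESeq2 called 1 gene of the other lists, Mpc1 (-2.63), where edgeR called 0.

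Of 280 log2 differences over 20 named genes and the alternatives, 14 turned in sign. With the blood marker covariate Hk1 was -0.081, Hif1a 0.059 and Epas1 0.28. Leaving out 1 library gave -0.46 to 0.21 for Slc2a3, -0.087 to 0.90 for Hk1, -0.10 to 0.62 for Ldha, -0.18 to 0.087 for Epas1 and -0.39 to 0.30 for Egln1. Samples with the same replicate number did not deviate together, with correlations of -0.01, -0.02 and -0.05, so the numbers give no pairing (no DPBS library correlated best with its own number). The replicate block gave 0 members at an unadjusted p under 0.05, 704 genes in all and 0 calls, with Arnt at 0.81 and Ndrg1 at 1.57, and Epas1 (0.091) and Egln1 (0.19) turned in sign. With 3 and 4 mice and an SE of 0.49 for the median member, small differences were not detectable, and larger ones could be missed. On simulated data, recovery was 0% at a factor of 2, 24% at a factor of 4 and 62% at a factor of 8. It reached 72% at a factor of 16. The lack of calls therefore does not exclude differences by a factor of 2 to 4 in the members.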

Other observations

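No library held the highest or the lowest value of most members. Of the 28 tested members, DPBS replicate 2 was the highest of the 7 libraries for 7 and the lowest for 4. FAPi replicate 2 was the highest for 2 and the lowest for 7. FAPi replicate 3 was the highest for 5 and the lowest for 5.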
